A study of Mus musculus with 16 samples.

Results

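The fibulins and the core genes of the elastic fibre were followed through granulosa cells of the mouse (mGCs), the somatic cells that line the ovarian follicle and surround the oocyte. The set holds 10 genes of the 57010 in each count table, found by their symbols: the fibulin genes Fbln1, Fbln2, Fbln5, Efemp1 and Efemp2, the fibre proteins Eln, Fbn1 and Fbn2, the crosslinking enzyme Lox and the collagen Col16a1. It was selected on the CPM of the cultured cells, in which Fbln2 and Fbln5 were lower after 14,15-EET, so the values of that contrast are a description below and no test of the members is drawn from them. RNA was sequenced in 16 libraries. The Con-mGC group comprised freshly isolated mGCs of 5 ICR females that had sham surgery, and the EM-mGC group those of 5 ICR females that carried donor endometrium sutured inside the abdomen, the model of endometriosis (EM), all of them after ovulation induction. By the study's methods the recipients were 6 weeks old at surgery, kept their ovaries and received 17β-estradiol after it. The PBS and EET groups held 3 libraries each of mGCs from 6 further EM mice, divided and cultured in DMEM/F12 with 5% FBS. The labels give 24 h of culture for the PBS group and 14,15-EET at 100 nM over 24 h for the EET group. A figure legend of the study instead gives 24 h of culture first. By that legend 14,15-EET, or as much PBS, was then added for 24 h more. By the methods these 6 mice gave 3 paired replicates, so that a library held cells of more than 1 mouse, and no cultured cells came from sham-operated mice. 14,15-EET is a short-lived epoxide that cells make from arachidonic acid.

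Elastic fibres consist of a core of crosslinked elastin on a scaffold of fibrillin microfibrils. Fibulin-5 (Fbln5) and fibulin-4 (Efemp2) bind tropoelastin and bring it to the microfibril, and lysyl oxidase (Lox) joins the elastin molecules. Fibulin-1 (Fbln1) and fibulin-2 (Fbln2) bind proteoglycans of the versican family, basement membrane proteins and fibronectin, while fibulin-3 (Efemp1) is a soluble relative that binds a tissue inhibitor of metalloproteinases. In the ovary such fibres are known from vessel walls, the theca and the stroma, and the matrix of the follicle wall is remodelled as the follicle grows.

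The sequences from 250 bases before to 50 bases after an annotated transcription start are shown for Fbln2, Fbln5 and Col16a1. These are 3 of the 4 members whose libraries did not overlap after 14,15-EET, and Fbn1 is not shown. Beside them stands Efemp1, the fibulin with the highest level in culture. The sequences are from RefSeq on GRCm38.p6, whose coordinates differ from those of the count tables. Capitals mark matches to the GC box GGGCGG on either strand. A window was found for 7 of the 10 members (11 windows in all). The windows lie at chr6:91212514-91212813 on the plus strand (Fbln2), chr12:101819070-101819369 on the minus strand (Fbln5, the first of 2 starts), chr4:130047590-130047889 on the plus strand (Col16a1) and chr11:28852955-28853254 on the plus strand (Efemp1).
Fbln2: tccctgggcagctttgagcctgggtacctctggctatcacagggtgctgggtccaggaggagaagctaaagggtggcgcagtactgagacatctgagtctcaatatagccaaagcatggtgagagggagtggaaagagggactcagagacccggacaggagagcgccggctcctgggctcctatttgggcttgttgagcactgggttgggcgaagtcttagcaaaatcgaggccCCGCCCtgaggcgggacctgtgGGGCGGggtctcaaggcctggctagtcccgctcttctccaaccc
Fbln5: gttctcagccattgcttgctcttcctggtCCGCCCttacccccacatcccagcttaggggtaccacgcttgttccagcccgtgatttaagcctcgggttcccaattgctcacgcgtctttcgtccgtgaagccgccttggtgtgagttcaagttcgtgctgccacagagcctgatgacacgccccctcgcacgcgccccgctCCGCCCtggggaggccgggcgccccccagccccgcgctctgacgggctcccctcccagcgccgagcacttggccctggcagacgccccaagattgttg
Col16a1: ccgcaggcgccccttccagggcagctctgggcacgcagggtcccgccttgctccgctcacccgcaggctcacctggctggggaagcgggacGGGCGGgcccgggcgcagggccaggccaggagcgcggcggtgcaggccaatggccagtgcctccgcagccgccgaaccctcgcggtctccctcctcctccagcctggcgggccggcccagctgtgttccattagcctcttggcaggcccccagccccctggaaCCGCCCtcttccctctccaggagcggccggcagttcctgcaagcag
Efemp1: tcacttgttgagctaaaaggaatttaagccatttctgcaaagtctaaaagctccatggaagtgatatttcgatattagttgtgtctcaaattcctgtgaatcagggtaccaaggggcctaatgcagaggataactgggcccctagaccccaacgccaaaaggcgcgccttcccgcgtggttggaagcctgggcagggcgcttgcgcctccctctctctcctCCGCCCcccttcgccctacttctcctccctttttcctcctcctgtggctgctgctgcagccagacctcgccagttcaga
In the windows shown, Fbln2, Fbln5 and Col16a1 held 2 GC boxes each and Efemp1 held 1. The window of Fbn1 held 1 and that at the second start of Fbln5 held 0. Of all 32851 windows of this length, 35.7% held at least 1 GC box. In Fbln2 the GC boxes began 16 bases before and 6 bases after the start. The TATA box TATAAA, present in 13.6% of all windows, was found in none of the 11 windows of the members (0). An AP-1 site (TGANTCA, 7.81% of all windows) was found only in Efemp1 among the 7 members with a window, and no searched motif overlapped another in the 4 windows shown. The Fbln5 window shown had a GC content of 65.7% and that of Col16a1 74.3%, where the median of all windows was 52.7%. At the second start of Fbln5 the GC content was 48.7%. A match says that the letters are present and nothing of a factor bound there.

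Between 14229123 and 15999234 reads per fresh library and between 21384686 and 29482826 per cultured library were counted on genes. Mitochondrial transcripts took 21.8% of the counts in EM-mGC-3, from 6.76% to 11.1% in the other fresh libraries and at most 1.64% in culture. The granulosa label was checked with 8 markers. All 8 had reads in each fresh library. Levels are in CPM (counts scaled to a common library size, here separately for fresh and cultured libraries). The aromatase gene Cyp19a1 was at a mean of 0.146 CPM in the PBS group, against 313 CPM in the EM-mGC group. Amh was at 0.263 against 56.5 CPM, and Fshr at 4.49 against 112 CPM. Inha was at 2471 against 5150 CPM and Foxl2 at 127 against 237 CPM. Of the 8 granulosa markers 7 were called lower in the PBS than in the EM-mGC group and 0 higher, and Cyp19a1 and Amh were near 0 in culture. The fresh libraries also held transcripts of other cells. Red blood cell markers summed to between 2647 and 17411 CPM, and 9 stromal fibroblast markers summed to between 1749 and 1910 CPM in the Con-mGC group and between 727 and 1650 CPM in the EM-mGC group, without overlap. In culture the endothelial sum was at most 7.49 CPM and the red blood cell sum at most 0.192 CPM. In bulk RNA, fewer cells of a type and less RNA per cell cannot be told apart, which holds for every member below.

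The genes lie apart in the genome. In the coordinates deposited with the counts (GRCm39 by the submitters' processing notes), Fbln2 (ENSMUSG00000064080) runs from 91189437 to 91249522 on chromosome 6, Fbln5 (ENSMUSG00000021186) from 101712824 to 101785314 on chromosome 12, and Fbln1 (ENSMUSG00000006369) from 85090150 to 85170736 on chromosome 15. Efemp1 runs from 28803204 to 28876743 on chromosome 11 and Efemp2 from 5523982 to 5532545 on chromosome 19. Eln runs from 134731447 to 134776177 on chromosome 5, Fbn1 from 125142514 to 125349913 on chromosome 2, and Col16a1 from 129941633 to 129993076 on chromosome 4. Lox (52649139 to 52662939) and Fbn2 (58141695 to 58343559) are both on chromosome 18, 5.48 megabases apart, and in culture they had opposite directions. Efemp2 overlaps Mus81, which has 10354 reads over all libraries, and Lox overlaps Gm41724, which has 1118, in each case on the other strand. Since the strand setting of the counting is not given in the sources used here, the levels of Efemp2 and Lox are uncertain to that extent.

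Levels can be compared between genes only per length, so CPM was divided by the exon length in kilobases (RPKM). In the Con-mGC group Fbln1 was highest of the 10 members at 118 ± 24.6 RPKM (SD, n = 5), followed by Efemp1 at 34.1 ± 16.0 and Efemp2 at 18.5 ± 2.53 RPKM. The fibrillins followed, Fbn2 at 10.5 ± 2.88 and Fbn1 at 8.97 ± 0.889 RPKM, whose ranges overlapped. Col16a1 was at 6.88 ± 0.446 RPKM. Eln, the elastin gene, was at 3.26 ± 0.390 RPKM, and its range overlapped those of Fbln2 at 3.10 ± 0.712 and Lox at 2.64 ± 0.339 RPKM. Fbln5 was lowest at 1.11 ± 0.170 RPKM. The first 3 and the last places were the same in the EM-mGC group, while Lox stood in place 6 there at 5.08 ± 2.64 RPKM and Eln in place 9 at 1.99 ± 1.16 RPKM.

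The makeup of the fibulin transcripts differed between fresh and cultured cells. Fbln1 made up from 50.5% to 75.0% of the summed fibulin level per length in the Con-mGC libraries and from 45.5% to 85.8% in the EM-mGC libraries, but from 3.04% to 4.58% in the PBS libraries. Efemp1 made up from 2.13% to 40.1% in the 10 fresh libraries and from 79.2% to 80.6% in the PBS libraries. Fbln2 had a share of 2.43 ± 0.934% (SD, n = 5) in the EM-mGC group and 6.26 ± 0.212% (SD, n = 3) in the PBS group, with no overlap. Efemp2 had a share of 12.4 ± 3.68% and 9.64 ± 0.539% in these groups, whose ranges overlapped. Fbln5 was at most 1.27% in all 16 libraries. Of the fibrillins, Fbn2 made up 53.1 ± 5.35% (SD, n = 5) of the pair per length in the Con-mGC group, 49.0 ± 4.23% in the EM-mGC group and 2.73 ± 0.983% in the PBS group. These shares are ratios within a library and do not depend on scaling between libraries. They are given as a description, and culture, experiment and any difference in sequencing run cannot be told apart in them.

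**Figure D1:**
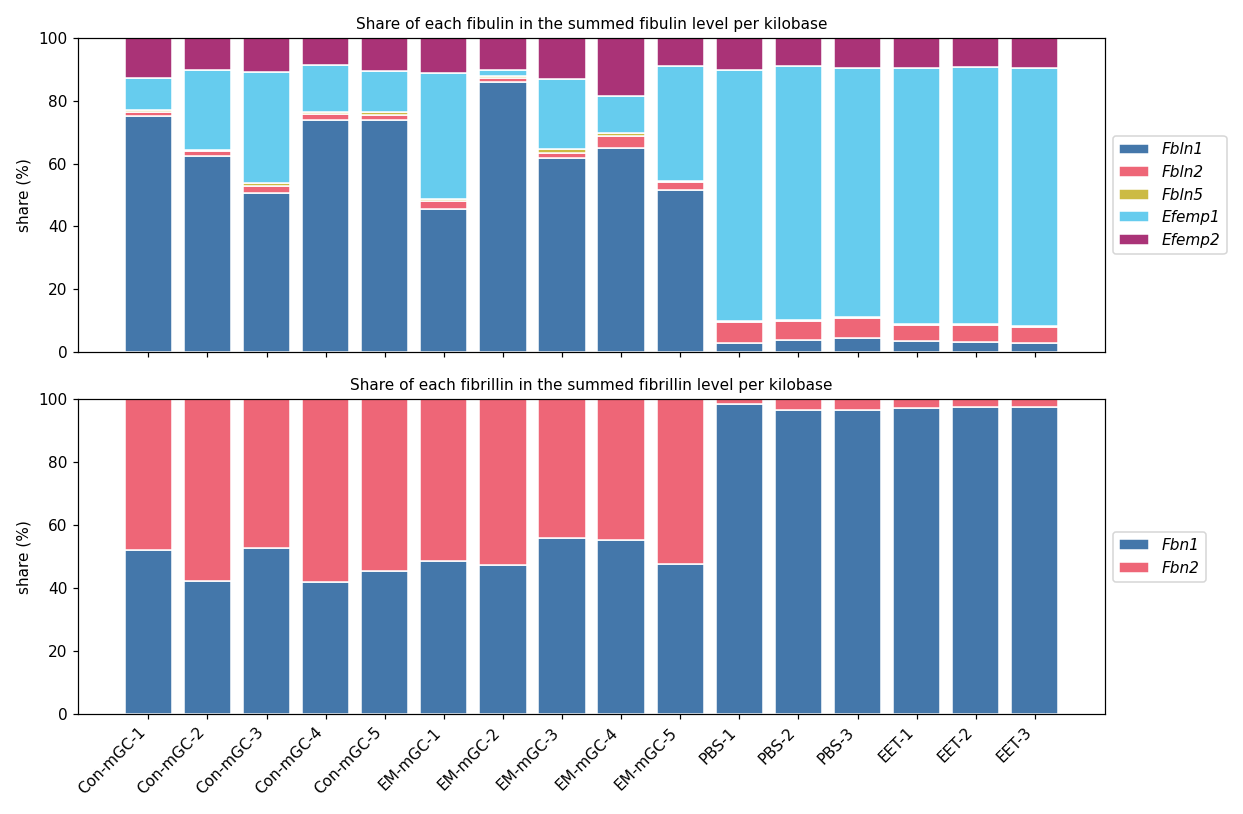
Share (%) of each fibulin (top) and each fibrillin (bottom) in its family's summed level per kilobase of exon, with 1 bar for each of the 16 libraries. Fbln1 takes the largest share in 10 of 10 fresh libraries and Efemp1 in 6 of 6 cultured libraries, and Fbn2 takes at least 44.1% of the fibrillins in fresh and at most 3.36% in cultured libraries.

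Whether the members differed in mGCs of EM mice was tested in the fresh libraries. The rule for the set used the cultured libraries, although results of the fresh ones were also known when it was made. Fbn1, Fbn2, Eln and Col16a1 had lower means in the EM-mGC group and Lox a higher one, while the 5 fibulins had no clear direction. No member passed an adjusted p of 0.05 (0 of 10, smallest adjusted p = 0.390 for Fbn1, by the quasi-likelihood F test of edgeR), and 0% of the 17229 genes tested passed (0 genes). At an unadjusted p under 0.05, 4 members were lower and 1 was higher, where 4.22% of all genes were lower and 5.22% higher at that limit. The median log2 fold change of the 10 members was -0.24, beside -0.01 over all genes tested. In none of the 10 members were the groups without overlap (0 members), where 0.778% of all genes were lower without overlap.

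Fbn1 encodes fibrillin-1, the main fibrillin of adult microfibrils. It was at 94.2, 116, 103, 108 and 122 CPM in Con-mGC-1 to Con-mGC-5 and at 100.7, 69.3, 75.3, 81.9 and 83.7 CPM in EM-mGC-1 to EM-mGC-5. Only EM-mGC-1 reached the Con-mGC range, and the other 4 EM libraries lay under it. The log2 fold change of Fbn1 was -0.40 ± 0.11 (standard error, SE), with p = 0.00363 before and 0.390 after adjustment in edgeR, and a two-sided exact permutation test gave p = 0.0159, where 5 libraries against 5 allow 0.00794 at the least. Fbn2, the fibrillin known from developing tissues, was at 94.4, 174, 100.2, 164 and 160.0 CPM in the Con-mGC group and at 116, 83.5, 64.6, 72.1 and 99.7 CPM in the EM-mGC group. Con-mGC-1 and Con-mGC-3 lay among the EM libraries, and 3 EM libraries lay under the whole Con-mGC range. Its log2 fold change was -0.67 (SE 0.21, adjusted p = 0.433 from edgeR).

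Eln, the gene of elastin itself, was at 27.4, 20.8, 28.0, 28.5 and 27.4 CPM in the Con-mGC group and at 18.6, 6.31, 30.5, 9.48 and 15.9 CPM in the EM-mGC group. The control libraries lay close together apart from Con-mGC-2, and 4 EM libraries lay below them all while EM-mGC-3 lay above them all. Eln had a log2 fold change of -0.71 (SE 0.33, adjusted p = 0.526 from edgeR), which was -1.07 without EM-mGC-3 and -0.51 without EM-mGC-2. Col16a1 encodes a minor collagen that sits near microfibrils. It was at 47.6, 45.8, 41.6, 49.6 and 47.6 CPM in the Con-mGC group and at 44.0, 21.1, 23.5, 34.0 and 38.5 CPM in the EM-mGC group, where 4 of 5 libraries lay below the control range. The log2 fold change of Col16a1 was -0.53 (SE 0.18, adjusted p = 0.462 from edgeR).

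Lox went the other way. It was at 11.5, 11.8, 15.3, 13.0 and 11.5 CPM in the Con-mGC group and at 16.4, 14.0, 23.4, 45.8 and 21.7 CPM in the EM-mGC group. In 4 of 5 EM libraries it lay above every control library, and EM-mGC-4 stood highest. The log2 fold change of Lox was 0.94 (SE 0.28, unadjusted p = 0.00514, adjusted p = 0.418 from edgeR), and 0.58 without EM-mGC-4. Two-sided exact permutation tests gave p = 0.0159 for Lox and Col16a1 and p = 0.0476 for Eln and Fbn2, unadjusted for the 10 members tested.

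Of the fibulins, Fbln1 was at a lowest, median and highest of 348, 525 and 623 CPM in the Con-mGC group. In the EM-mGC group it was at 358, 613, 358, 269.7 and 439.5 CPM, of which 1 library lay under the control range, and the log2 fold change was -0.34 (adjusted p = 0.622 from edgeR). Fbln2 was at 15.6, 15.9, 23.4, 25.7 and 18.4 CPM in the Con-mGC group and at 30.2, 15.4, 13.8, 23.0 and 32.2 CPM in the EM-mGC group. Its EM libraries reached past the control range on both sides, with a log2 fold change of 0.21 (SE 0.25, adjusted p = 0.793 from edgeR). Fbln5 was at 8.15, 5.76, 8.82, 7.42 and 8.17 CPM in the Con-mGC group and at 7.10, 5.06, 11.6, 5.05 and 6.27 CPM in the EM-mGC group. These ranges overlapped widely, and the log2 fold change was -0.13 (SE 0.24, adjusted p = 0.878 from edgeR). Efemp2 was the most even fibulin across EM mice, from 62.8 to 76.9 CPM, against 63.8 to 86.6 CPM in the controls.

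Efemp1 varied more among mice than any other member. It was at 38.1, 93.2, 114, 58.9 and 44.0 CPM in the Con-mGC group and at 147, 7.10, 59.8, 23.3 and 145 CPM in the EM-mGC group. The highest EM library exceeded the lowest by 20.7 times, and the coefficient of variation was 86.8% in the EM-mGC group and 46.8% in the Con-mGC group, where the medians of 14317 expressed genes were 18.5% and 14.8%. Of those genes, 99.5% varied less than Efemp1 in the EM-mGC group and 95.3% in the Con-mGC group. EM-mGC-2, the library lowest in Efemp1, was also lowest in Eln, Lox and Col16a1 among the EM libraries and highest in Fbln1. The log2 fold change of Efemp1 was 0.14 (SE 0.63, adjusted p = 0.955 from edgeR), and its sign turned with the library left out, from -0.24 without EM-mGC-1 to 0.43 without EM-mGC-2.

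Markers of other cells moved beside these values. The summed stromal fibroblast level was 1650, 727, 1223, 1253 and 1354 CPM in EM-mGC-1 to EM-mGC-5, and all 5 lay below the lowest control at 1749 CPM. Of the 9 stromal markers, 8 had lower and 1 a higher mean, and 0 passed an adjusted p of 0.05 in edgeR. The endothelial sum was 183 to 213 CPM in the Con-mGC group and 105 to 186 CPM in the EM-mGC group. The leukocyte sum was 187 to 383 CPM and 283 to 703 CPM in these groups. The smooth muscle and pericyte sum was 256 to 390 CPM in the Con-mGC group. In EM-mGC-1 to EM-mGC-5 it was 273, 136, 312, 171 and 231 CPM, in the same order of libraries as Eln. Of its 8 markers 6 were lower and 2 higher, and 0 passed an adjusted p of 0.05 in edgeR. EM-mGC-2 was lowest of the EM libraries in the stromal, endothelial and leukocyte sums and highest in the granulosa sum at 16743 CPM. The part of these cells in the values of Eln, Fbn1, Fbn2, Col16a1 and Lox was not tested.

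The cultured EM cells of the PBS group were then compared with the fresh EM cells in a fit of the counts of both tables. The fold changes of most members were larger than those between EM and sham-operated mice. Lox, Efemp1, Fbln2, Efemp2, Col16a1 and Fbln5 were higher in culture and Fbn2, Eln, Fbln1 and Fbn1 lower. All 10 members passed an adjusted p of 0.05, 6 of them higher and 4 lower (edgeR), but so did 69% of the 17301 genes tested, 31.1% higher and 37.9% lower, so that a call by itself says little here. The median log2 fold change was 1.05 over the members and -0.11 over all genes. These groups differ in culture and in experiment, and their sequencing runs are not given in the sources used here. Culture, experiment and any difference in run cannot be told apart. The comparison shares its EM-mGC libraries with the one above and its PBS libraries with the one after 14,15-EET.

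Lox had a mean of 22.0 ± 11.5 CPM (SD, n = 5) in the EM-mGC group and 871 ± 27.4 CPM (SD, n = 3) in the PBS group, 39.5-fold higher, with a log2 fold change of 5.31 and an SE of 0.35 (adjusted p = 1.64e-06 from edgeR). Of all genes tested, 99.7% had a lower log2 fold change than Lox. Efemp1 went from 69.5 ± 60.0 to 852 ± 48.0 CPM, a log2 fold change of 3.62 (SE 0.75), and Fbln2 from 20.8 ± 7.53 to 209 ± 18.8 CPM, a log2 fold change of 3.33 (SE 0.26). Both lay higher in each PBS library than in any EM-mGC library. Efemp2, the partner of Lox in elastin assembly, went from 61.5 ± 5.10 to 191.5 ± 21.5 CPM (3.11-fold). Col16a1 was 2.12-fold higher at 61.9 ± 3.22 CPM, and Fbln5 2.02-fold higher at 12.9 ± 0.631 CPM. On the log2 scale that was 1.08 (SE 0.22) for Col16a1 and 1.02 (SE 0.27) for Fbln5, too close to rank.

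The elastin gene and the second fibrillin fell close to the limit of detection. Eln had 96 to 367 reads per library in the fresh EM cells and 5 to 10 reads in the PBS libraries, from 14.7 ± 8.78 to 0.351 ± 0.0830 CPM, or 40.6-fold lower (log2 fold change -5.34, SE 0.62, adjusted p = 4.51e-05 from edgeR). Fbn2 had 779 to 1670 reads in fresh cells and 19 to 58 in the PBS libraries, from 79.1 ± 18.7 to 1.82 ± 0.715 CPM, or 42.5-fold lower (log2 fold change -5.41, SE 0.31). Fbln1 fell 4.25-fold, from 369 ± 113 to 86.7 ± 14.5 CPM. Fbn1 changed least, from 74.6 ± 10.9 to 59.0 ± 3.95 CPM, or -0.34 on the log2 scale (SE 0.13, adjusted p = 0.0355 from edgeR). That call was lost without EM-mGC-1, EM-mGC-5, PBS-1 or PBS-2, with adjusted p up to 0.129, and when every gene with a read was tested (adjusted p = 0.0779). Upper-quartile scaling moved the median of all genes by -0.25, and with it 10 of 10 members kept their direction and their call.

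**Figure D2:**
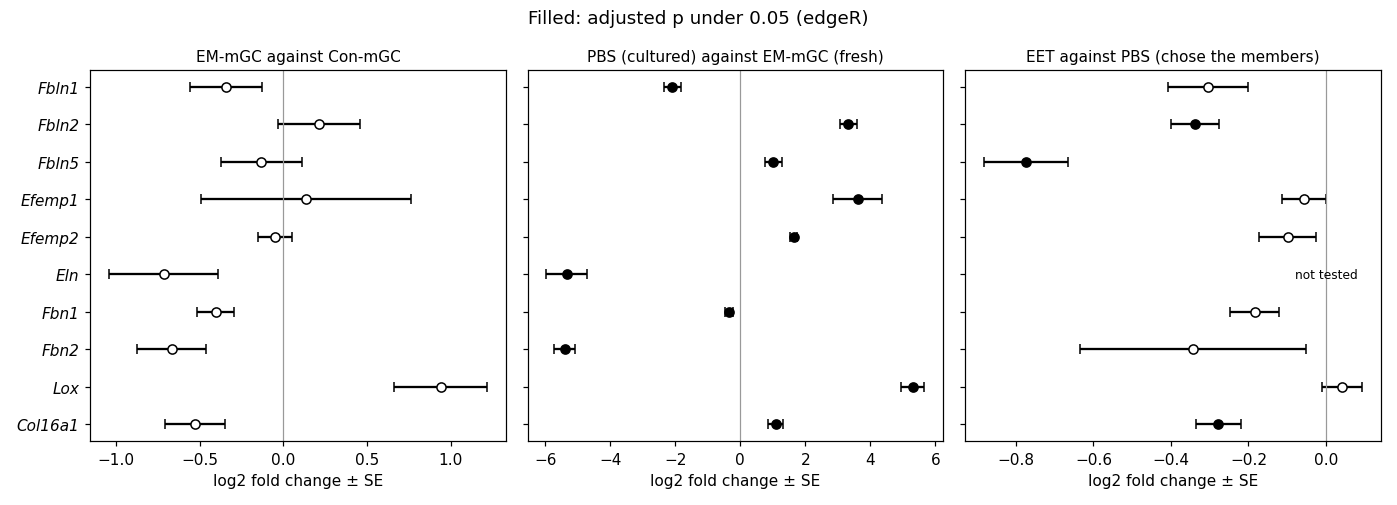
Log2 fold change (x axis, which differs between panels) with its error (SE) for the 10 members in the 3 comparisons, filled where the adjusted p from edgeR was under 0.05. No member is filled for EM-mGC against Con-mGC (0 of 10), and PBS against EM-mGC runs from -5.41 for Fbn2 to 5.31 for Lox.

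Markers of other cell types also differed between the PBS and EM-mGC groups. Of the 9 stromal fibroblast markers 7 were called lower in culture and 0 higher (2 had higher means, not called), and their sum was 312 to 388 CPM in the PBS group. The collagen genes among them behaved unequally, since Col3a1 had a mean of 14.7 CPM and Col1a1 one of 203 CPM. Endothelial and leukocyte markers were lower in culture in 8 of 8 and 9 of 9 genes, and Cldn5, an endothelial junction gene, had no read in the 6 cultured libraries (0). The smooth muscle and pericyte sum was higher at 508 to 677 CPM, against 136 to 312 CPM in the EM-mGC group, each scaled separately. Acta2 alone had means of 544 CPM in the PBS group and 142 CPM in the EM-mGC group. Of the 8 markers 5 were called lower in culture and 2 higher, with a median log2 fold change of -1.45. The part of these cell types in the changes of the members was not tested.

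The same table gives the members after 14,15-EET. Of the 9 members tested, 8 had lower means in the EET group, with Fbln5 the lowest by fold, in a contrast that was used to choose the set. In the fit of all genes 3 of the 9 had an adjusted p under 0.05, all lower (Fbln2, Fbln5 and Col16a1), which is given as a description only, and 4 were lower in every EET library than in any PBS library (these and Fbn1). Of all 15050 genes tested, 1.22% passed, 0.724% lower and 0.498% higher, and 9.17% were lower without overlap, and nothing is read from these shares since Fbln2 and Fbln5 were the reason for the choice. The median log2 fold change was -0.28 over the 9 members and 0.00107 over all genes. Eln was not tested, as it had 5 to 11 reads per cultured library.

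Fbln5, which tethers elastin to microfibrils and to integrins of the cell, was at 11.6, 12.1 and 11.0 CPM in PBS-1 to PBS-3 and at 6.15, 6.59 and 7.62 CPM in EET-1 to EET-3. The highest EET library lay well under the lowest PBS library, and the log2 fold change was -0.77 with an SE of 0.11. These values rest on 173 to 315 reads per library. Fbln2 was at 206, 173 and 184 CPM in the PBS group and at 153, 146 and 145 CPM in the EET group. It was lower in all 3 EET libraries, with a log2 fold change of -0.34 (SE 0.06). Col16a1 was at 53.7, 58.8 and 54.3 CPM and at 44.6, 45.3 and 47.7 CPM, also without overlap (log2 fold change -0.28, SE 0.06).

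Of the other members only Fbn1 was without overlap. Fbln1 was at 66.4, 74.9 and 92.3 CPM in the PBS group and at 69.3, 62.0 and 57.9 CPM in the EET group, where EET-1 lay above PBS-1 (log2 fold change -0.31, SE 0.10). Fbn1 was at 50.9, 50.8 and 57.2 CPM and at 49.2, 45.2 and 45.4 CPM, a difference of -0.18 on the log2 scale. Efemp1, the most abundant fibulin of these cells, had a log2 fold change of -0.06 at 765 ± 43.2 CPM in the PBS group and 735 ± 26.8 CPM in the EET group (SD, n = 3 each). Lox was the only one of the 9 tested members with a higher mean, at 782 ± 22.7 and 804 ± 32.3 CPM, and Eln, not tested, was at 0.315 and 0.338 CPM. Efemp2 had a log2 fold change of -0.10. Fbn2 had 19 to 58 reads per library and a log2 fold change of -0.34 with an SE of 0.29.

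With each of the 6 libraries left out in turn, the log2 fold change ran from -0.86 to -0.71 for Fbln5, from -0.40 to -0.26 for Fbln2, from -0.31 to -0.24 for Col16a1 and from -0.40 to -0.16 for Fbln1. An adjusted p under 0.05 (edgeR) was reached in 6 of these 6 fits for Fbln5, 3 for Fbln2, 2 for Col16a1 and 1 for Fbln1. Of the marker lists, the granulosa sum was 4479 to 4980 CPM in the PBS group and 4051 to 4411 CPM in the EET group. Of its 6 markers tested 3 were lower (1 called) and 3 higher, with Inha at 2471 and 1922 CPM. The smooth muscle and pericyte sum was 508 to 677 and 442 to 514 CPM. Of its 7 markers tested 4 were lower (1 called) and 3 higher, with Acta2 at 544 and 454 CPM. The stromal fibroblast sum overlapped, at 312 to 388 and 329 to 342 CPM. Of its 8 markers tested 6 were lower (1 called) and 2 higher. The surface epithelial and mesothelial sum was 155 to 169 CPM in the PBS group and 127 to 138 CPM in the EET group. Of its 6 markers tested 4 were lower (1 called) and 2 higher. Their part in the lower values of Fbln5, Fbln2 and Col16a1 was not tested.

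**Figure D3:**
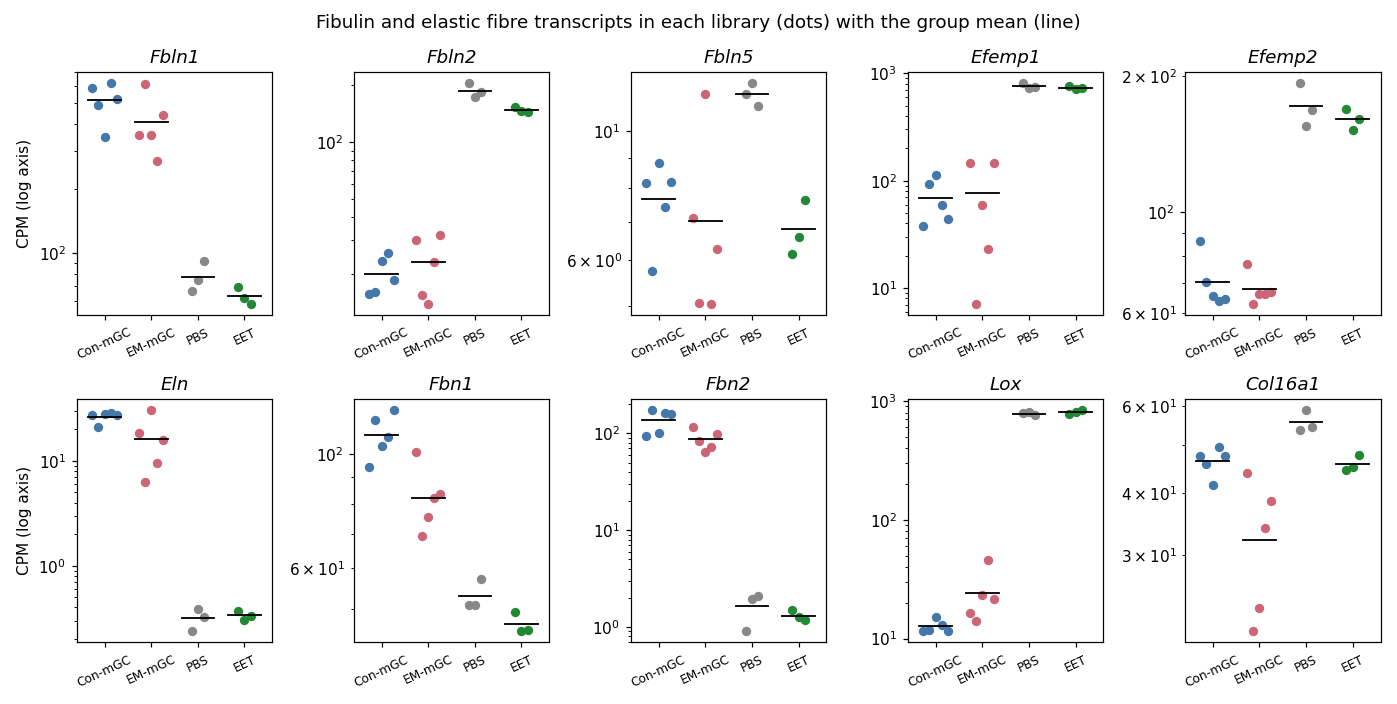
CPM (log axis, with a range of its own in each panel) of the 10 members in each of the 16 libraries, as dots with the group mean as a line, scaled within each table. Fbln5, Fbln2 and Col16a1 lie lower in 3 of 3 EET libraries than in the PBS libraries, and Efemp1 spreads from 7.10 to 147 CPM among the EM-mGC libraries.

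Beside the members, 88 genes that work with the elastic fibre were listed in 10 groups by role. In EM-mGC against Con-mGC, 78 were tested and 0 passed an adjusted p of 0.05 in edgeR, as in the whole table. At an unadjusted p under 0.05, 19 of the 78 were lower and 6 higher, beside 4.22% and 5.22% of all genes, and nothing particular to the lists is read from it. Of the 8 microfibril and latent TGF-beta binding proteins 5 had lower means, and the list's median log2 fold change was -0.47. That of the 5 emilins was -0.47 with 4 lower, and that of the 9 elastases and inhibitors tested was 0.60 with 7 higher. The medians of the other 7 lists ran from -0.36 for the fibulin relatives to 0.06 for the crosslinking enzymes. Markers of other cells moved beside them. The 9 stromal fibroblast markers had a median of -0.48, and of the 9 leukocyte markers 8 had higher means with a median of 0.38, S100a9 among them at 6.24 CPM in the Con-mGC and 47.2 CPM in the EM-mGC group. Their part in the lists was not tested. Of the elastases, Mmp9 had means of 2.49 CPM in the Con-mGC group and 9.09 CPM in the EM-mGC group, and Ltbp4, a microfibril protein needed for elastin assembly, had 121 and 61.0 CPM. Both were picked after their values were seen, with adjusted p of 0.297 and 0.270 from edgeR.

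After 14,15-EET, 66 of the 88 genes were tested, of which 1 was called lower and 1 higher, beside 0.724% and 0.498% of all genes, with a median log2 fold change of -0.07. Fn1, which encodes fibronectin, a ligand of fibulin-1 and fibulin-2, was at 243, 281 and 340.5 CPM in the PBS group and at 187, 159 and 175 CPM in the EET group. It fell in all 3 EET libraries, with a log2 fold change of -0.73 (SE 0.10, adjusted p = 0.00388 from edgeR). Ltbp1, which holds latent TGF-beta in the matrix, was at 377, 324 and 350.5 CPM and rose to 481, 451 and 461 CPM, or by 0.41 on the log2 scale (SE 0.06, adjusted p = 0.00574 from edgeR). Without EET-3, no listed gene was called higher (0). The integrins, crosslinking enzymes, ADAMTS genes and elastases had 0 called members, and their list medians ran from -0.15 to 0.05 on the log2 scale.

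In culture against fresh EM cells, 62 of 79 listed genes passed, 38 lower and 24 higher, with a median log2 fold change of -0.32, beside the 69% of all genes that passed. The lists did not move as blocks. Of the emilins 4 were lower and 1 higher, of the FACIT collagens 5 lower and 1 higher, and of the 11 crosslinking enzymes and activators 4 lower and 6 higher. Integrin beta-5 (Itgb5), a partner of alpha-v that can bind fibulin-5, rose from 167 ± 17.1 to 2100 ± 77.0 CPM (SD, n = 5 and 3; log2 fold change 3.65, adjusted p = 8.72e-08 from edgeR). Pcolce2, which enhances procollagen processing, rose from 0.545 ± 0.377 to 51.2 ± 1.81 CPM. Timp3 rose from 43.6 to 361 CPM and Timp2 from 99.9 to 299 CPM, both inhibitors of metalloproteinases. Col12a1 rose from 18.7 to 230.5 CPM and Adamtsl5 from 0.970 to 14.2 CPM.

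Among the genes that fell were several of the microfibril. Of the 8 microfibril and latent TGF-beta binding proteins 4 were called lower in culture and 2 higher. Ltbp4 fell from 55.4 ± 15.5 to 4.09 ± 0.730 CPM (log2 fold change -3.76, adjusted p = 1.91e-06 from edgeR). Emilin1, an elastic fibre glycoprotein, fell from 29.6 to 2.11 CPM and the transglutaminase gene Tgm2 from 61.6 to 7.36 CPM. Mfap4, which binds fibrillin and elastin, had 120 to 339 reads in the fresh EM libraries and 0, 0 and 1 in the PBS libraries. Adamtsl2, which binds fibrillin-1 and the latent TGF-beta binding proteins, had 85 to 172 and 0, 1 and 0. Bcan, a proteoglycan of the versican family, had a mean of 14.7 CPM in fresh EM cells and 0.286 CPM in the PBS group. These named genes are the 12 with the smallest adjusted p of the listed genes.

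**Figure D4:**
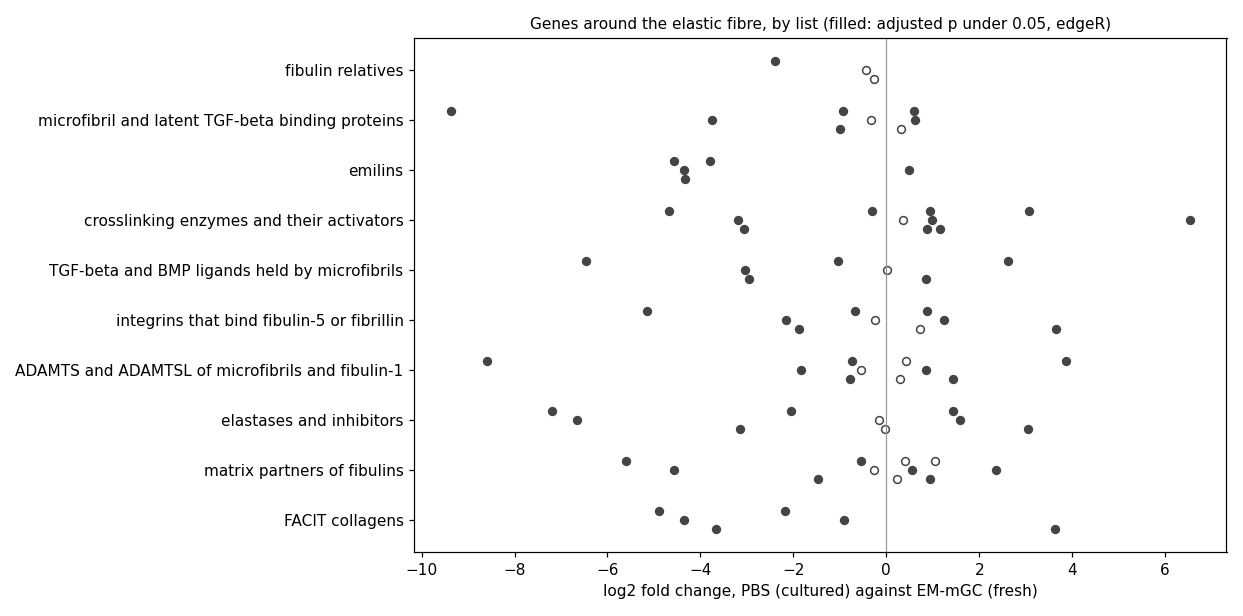
Log2 fold change of 79 listed genes around the elastic fibre in PBS (cultured) against EM-mGC (fresh), with 1 dot per gene and 1 row per list, filled where the adjusted p from edgeR was under 0.05. Of the dots 38 are filled on the lower side and 24 on the higher side, and the lowest dots (Mfap4 and Adamtsl2) rest on at most 1 read per PBS library, so their fold depends on the offset of the fit.

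The genes whose levels ran most like those of Fbln2 and Fbln5 across the 10 fresh libraries were sought among 12942 protein-coding genes averaging 1 log2 CPM or more. For Fbln2 they were Tap1 (Pearson r = 0.90, Spearman rho = 0.90), the peptide transporter of antigen presentation, Adgrg2 (0.89 and 0.98) and Gbp7 (0.88 and 0.87), an interferon-induced GTPase. Without the 2 libraries farthest from the median of Fbln2, r was 0.82, 0.85 and 0.79. For Fbln5 they were Slc23a3 (0.91 and 0.87), Fbxl7 (0.90 and 0.90) and Prox1 (0.87 and 0.93), and r was 0.90, 0.86 and 0.90 without the 2 libraries farthest from its median. For Efemp1, added after its spread was seen, they were Acss1, Notch4 and Pdgfrb at r = 0.91, 0.90 and 0.89, which without the 2 farthest libraries became 0.84, 0.69 and 0.67. These are the highest of 12942 values each, over libraries that vary in depth and in their cell type marker sums, and no p is given. The granulosa sum, for example, ran from 4912 to 16743 CPM in the EM-mGC group. The part of cell makeup in these correlations was not tested.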

How the data were processed

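RNA of 16 libraries of mouse granulosa cells was made into stranded poly(A) libraries. The authors deposited raw read counts per Ensembl gene in 2 tables, counted with featureCounts by the name of the tables. The submitters' processing notes list GRCm39, fastp, HISAT2 and StringTie without versions, and whether reads were counted by strand is not given in the sources used here. No column was left unused (0 columns).

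Counts were analysed with edgeR 4.0.16 (R 4.3.3). Genes were kept by filterByExpr, scaled by TMM and tested by quasi-likelihood (glmQLFit, glmQLFTest), with p-values adjusted after Benjamini and Hochberg across all genes tested and called at an adjusted p under 0.05. EM vs Con, EET vs PBS and PBS vs EM-mGC were fitted separately, and the last joined the raw counts of both tables. CPM in the report is scaled within each table, except for members and listed genes in PBS vs EM-mGC, where it is scaled over both. Comparisons that share the PBS or the EM-mGC libraries are not independent. RPKM is CPM per kilobase of merged exons in GENCODE M21. Single members were also compared by two-sided exact permutation tests of log2(CPM + 1). With 3 libraries against 3 such a test cannot go below 0.1 and was not run.

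The named genes are the 10 members, the called genes of 10 pathway lists (88 genes) up to 12 per comparison by smallest adjusted p, and the 3 most alike genes of Fbln2 and Fbln5. Members and lists were chosen with earlier results of these data known. The fits were tested on simulated counts. DESeq2 1.42.0, other scalings and filters, the replicate number as a block and each library left out in turn were the alternatives. Depth is given as total counts per library. No pair of replicates was close enough to be 1 library deposited again, and where several mice were combined the p-values measure the spread between libraries.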

Additional observations from a re-analysis of the deposited data

Results flagged for a closer look

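Of 20 sets of 5 fresh libraries (10 members in 2 groups), 3 held a library farther from the rest than Dixon's 95% limit, and chance alone gives this in about 1 in 20 sets. Efemp2 was at 86.6 CPM in Con-mGC-1, where the other control libraries lay between 63.8 and 70.2 CPM. It was at 76.9 CPM in EM-mGC-1, with the other EM libraries between 62.8 and 66.9 CPM. Eln was at 20.8 CPM in Con-mGC-2, and the other control libraries lay between 27.4 and 28.5 CPM. Groups of 3 cultured libraries were not examined in this way.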

How the results depend on the processing

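With 0 of 10 members called in EM vs Con under every alternative tried and 9 or 10 in PBS vs EM-mGC (9 where Fbn1 lost its call, and 9 of 9 with at least 10 counts in every library, where Eln was not tested), counts of listed genes and of all genes moved with the settings as follows. In EM vs Con, listed genes called numbered 0 in the edgeR fit, 5 with DESeq2, 1 with the replicate number as a block, and 0 to 1 with each library left out (1 without Con-mGC-3). In EET vs PBS the 2 listed genes became 7 with DESeq2, 11 without a filter and 5 with the replicate block. With a library left out they became 1 (without EET-3) to 6 (without PBS-1). The 3 members became 1 (without PBS-3, EET-2 or EET-3) to 4 (without PBS-1) with a library left out. Fbln1 was also called in 1 of the 7 alternatives that left out no library, and Fbln2, Fbln5 and Col16a1 in all 7. In PBS vs EM-mGC, 40 listed genes rather than 62 were called with at least 10 counts in every library, where 58 rather than 79 were tested. Over all genes, EM vs Con gave 113 calls with DESeq2, 4 without a filter, 2 with the replicate block and 46 without Con-mGC-3. EET vs PBS gave 184 in the edgeR fit, 341 with DESeq2, 662 without a filter, 341 with the replicate block and 48 (without EET-3) to 436 (without PBS-2) with a library left out. Upper-quartile scaling moved the lower share of calls in PBS vs EM-mGC from 54.9% to 67.4%. The log2 fold change of Efemp1 in EM vs Con was -0.38 with the replicate block and from -0.24 to 0.43 with a library left out, and that of Efemp2 from -0.098 to 0.047. The cause of these moves was not tested. Equal replicate numbers are not stated to mark pairs, and deviations from the group means of equally numbered cultured libraries correlated at 0.12, 0.26 and -0.09, so the block was not read further. Depth limits Eln and Fbn2 in culture, with 5 to 11 and 19 to 58 reads per library.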
